A study of Mus musculus with 20 samples.

Results

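The 89 genes described here encode the nuclear part of the mitochondrial respiratory chain and of ATP synthase, together with factors that share their names. They are every row of the wild-type table whose symbol begins with Ndufa, Ndufb, Ndufc, Ndufs, Ndufv, Uqcr, Cox4, Cox5, Cox6, Cox7, Cox8 or Atp5, or is Sdha, Sdhb, Sdhc or Sdhd, out of 13954 rows in all. By complex they are 36 subunits of complex I (7 of its catalytic core and 29 accessory), 4 of complex II, 8 of complex III, 15 of complex IV and 15 of ATP synthase. The other 11 are no structural subunits of these 5 assemblies: the complex I assembly factors Ndufaf1 to Ndufaf7, the supercomplex factor Cox7a2l, the Ndufa4 paralogue Ndufa4l2, and Atp5s and Atp5sl. Ndufa4, named for complex I, was counted with complex IV, of which it is a subunit. The members were chosen by name.

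Complex I passes electrons from NADH, and complex II from succinate, to ubiquinone. Complex III hands them to cytochrome c and complex IV to oxygen, and the proton gradient that complexes I, III and IV build up drives ATP synthase. Complex II is also an enzyme of the citric acid cycle and is the only one of the 5 with no subunit encoded in mitochondrial DNA. In macrophages the balance between this chain and glycolysis is known to differ between activation states, and succinate and complex I are known to take part in inflammatory signalling.

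RNA was sequenced from cells positive for F4/80 and CD11b, surface proteins of mouse macrophages and some other myeloid cells, sorted from male mice. Wild-type mice gave 3 libraries of visceral adipose tissue (VAT) at 3 months, 4 of VAT at 24 months, 2 of spleen at 3 months and 4 of spleen at 24 months. Mice of genotype Nlrp3-/-, which lack the sensor of an inflammasome, gave 4 libraries of VAT and 3 of spleen, all at 24 months. The series title concerns an inflammasome-driven programme of macrophages in ageing fat, which the age and genotype comparisons address. Values are normalised read counts per gene, in which 1 stands for 0 reads, and they stand in 3 separately normalised tables: the 13 wild-type libraries, the 11 VAT libraries and the 9 spleen libraries. The labels do not say which animal or animals gave a library, so p-values measure the spread between these samples, which may be technical.

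Between 24.1 and 37.5 M (mega) reads per library were recovered from the tables. Nlrp3 stood at 2708 to 4254 in 24-month wild-type VAT and at 6.15 to 10.5 in 3 of the 4 Nlrp3-/- VAT libraries, while Nlrp3-/- VAT replicate 4 stood at 200. In spleen Nlrp3 stood at 341 to 663 in the 24-month wild type and at 1 to 3.61 without the gene. Macrophage markers, 6 of 7 listed, summed to 115430 to 204190 in VAT and to 40708 to 69235 in spleen. Neutrophil markers, 7 of 8 listed, summed to 141400 to 715080 in spleen against 302 to 838 in VAT. B cell markers, 5 of 5, came to 69608 to 125670 in spleen against 569 to 8221 in VAT. Fibroblast markers, 5 of 5, ran the other way, with 28766 to 79116 in VAT and 7.89 to 203 in spleen. Adipocyte markers, 6 of 6, likewise summed to 7918 to 20900 in VAT and to 78.7 to 525 in spleen, where Plin1 and Cidec stood at 1 in every library. In VAT this sum was mostly Fabp4, with means of 9299 at 3 months and 10134 at 24 months, against 300 and 175 for Adipoq. Mean Retn was 183 in VAT and 229 in spleen at 3 months, and 78.8 and 32.2 at 24 months. These means come from the separately normalised VAT and spleen tables. The sorted cells of the 2 tissues therefore differed in markers of several cell types beside their macrophage markers, and the part of this in each tissue difference given here was not tested. In such bulk samples, more cells of a type and more RNA per cell cannot be told apart.

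Promoter sequence is shown for 5 members with an entry in the RefSeq table: the isoforms Cox7a1 and Cox7a2, Cox6a1 and Sdhd, which were higher in 24-month VAT on the deposited scale, and Atp5e, which was lower with age in VAT. Sdhc, Uqcrb, Ndufa4l2, Cox6a2, Cox6c, Ndufb9 and Atp5sl were not matched. Each sequence is the 250 bases before the RefSeq start on the gene's own strand (build GRCm38.p6), 5′ to 3′. Capitals mark matches, on either strand, to GCGCANGCG, the site of nuclear respiratory factor 1 (NRF1), to CCGGAAG, the core of ETS factors such as GABP, or to AAGGTCA, the site of estrogen-related receptors (ERR). Cox7a1 lies at chr7:30183921-30184170 on the plus strand and its ubiquitous counterpart Cox7a2 at chr9:79759854-79760103 on the minus strand, and neither window holds a match. Cox6a1, at chr5:115348959-115349208 on the minus strand, holds 3 matches to the NRF1 letters, 2 of which overlap on opposite strands, and 1 to the ETS letters. Sdhd, at chr9:50603850-50604099 on the minus strand, holds 1 of each. Atp5e, at chr2:174464102-174464351 on the minus strand, holds 1 ETS match. No match of 1 motif overlaps a match of another in these windows.
Cox7a1: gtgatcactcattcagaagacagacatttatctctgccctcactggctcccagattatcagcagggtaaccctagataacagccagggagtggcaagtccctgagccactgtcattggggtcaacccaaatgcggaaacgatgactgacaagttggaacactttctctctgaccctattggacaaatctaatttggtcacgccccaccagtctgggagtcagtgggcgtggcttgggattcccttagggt
Cox7a2: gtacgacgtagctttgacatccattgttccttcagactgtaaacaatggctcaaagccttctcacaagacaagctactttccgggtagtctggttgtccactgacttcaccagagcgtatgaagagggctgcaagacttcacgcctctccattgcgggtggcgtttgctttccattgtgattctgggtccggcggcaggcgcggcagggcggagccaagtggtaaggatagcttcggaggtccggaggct
Cox6a1: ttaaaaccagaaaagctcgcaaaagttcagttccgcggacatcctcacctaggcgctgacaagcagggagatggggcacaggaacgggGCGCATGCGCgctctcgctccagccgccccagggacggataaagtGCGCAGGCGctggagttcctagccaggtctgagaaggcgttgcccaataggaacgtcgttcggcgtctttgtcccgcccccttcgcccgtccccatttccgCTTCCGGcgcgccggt
Sdhd: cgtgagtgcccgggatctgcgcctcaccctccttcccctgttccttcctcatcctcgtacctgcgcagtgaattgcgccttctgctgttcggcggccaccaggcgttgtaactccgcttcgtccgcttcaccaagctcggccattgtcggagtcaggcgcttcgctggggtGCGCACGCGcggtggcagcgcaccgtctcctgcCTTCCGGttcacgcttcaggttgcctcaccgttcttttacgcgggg
Atp5e: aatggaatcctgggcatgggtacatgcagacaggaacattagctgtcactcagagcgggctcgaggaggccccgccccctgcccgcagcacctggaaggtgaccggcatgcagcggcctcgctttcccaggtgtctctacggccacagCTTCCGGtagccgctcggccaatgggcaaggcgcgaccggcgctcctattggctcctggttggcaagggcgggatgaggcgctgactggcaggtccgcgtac

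Over the members as a whole, 71 of the 89 had at least 1 RefSeq start in the promoter table, which gave 76 windows. NRF1 letters stood in 16 of these (21.1%), for example those of Atp5c1, Ndufa8 and Sdha, against 5.16% of all 32851 windows of the same length. ETS letters stood in 13 (17.1%) against 6.91%, and ERR letters in 5 (6.58%) against 4.08%. NRF1 letters were in 5 of the 16 ATP synthase windows and in 0 of the 5 of complex III. A match describes the letters only and says nothing of binding.

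Levels between members are compared per kilobase (kb) of transcript. On this scale the medians over members were 6564 normalised counts per kb for complex III, 6281 for ATP synthase and 6242 for complex IV. They were lower for complex I (3358) and complex II (2999). Factors that are not structural subunits had a median of 215. Cox4i1, the common form of the largest nuclear subunit of complex IV, was the most abundant member at 27900 per kb, followed by Cox6a1 (16043), Cox8a (14344), Atp5e (13508) and Cox5a (13117). Within complex I the highest was the accessory subunit Ndufa3 (11324 per kb) and the lowest Ndufs5 (141), one of 22 members with a near-identical copy elsewhere in the genome between which reads can be split. Sdhb, the iron-sulfur subunit, was the highest of complex II (6191 per kb), and Sdhc, a membrane anchor, the lowest (808). Uqcrh, the hinge protein of complex III, stood at 10365 per kb and Uqcrc2, a core protein, at 2308. Cox4i2, a form of Cox4 known from lung, was lowest in complex IV (62.8 per kb), and Ndufa4l2 lowest of all (52.6). Genes of the 13 subunits encoded in mitochondrial DNA had no row in the wild-type table under the symbols searched.

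The members varied little among libraries of 1 group. Their median within-group standard deviation (SD) was 0.18 on the log2 scale, against 0.40 for all genes tested and 0.29 for the 7803 genes in the band of mean values (312 to 7285) that holds the middle of the members. Sdhd had the lowest SD (0.088) and Cox4i2 the highest (1.57). Many members shifted together in single libraries. Replicate 3 of 3-month VAT had the highest value of its group for 68 of the 89 members, and replicate 1 of 3-month spleen the higher of 2 for 64. In 24-month spleen, replicate 1 was highest for 54 and replicate 4 lowest for 57. The plot of levels by complex shows these shared shifts. On the deposited scale, complex II was the one of the 5 assemblies for which all 7 VAT libraries stood above all 6 spleen libraries. As a share of reads the order turned: its 4 subunits took 0.0581% to 0.0628% of reads in 3-month VAT and 0.0643% to 0.0644% in 3-month spleen, and at 24 months 0.0612% to 0.0791% in VAT and 0.0763% to 0.0903% in spleen, where the ranges overlap.

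**Figure D1:**
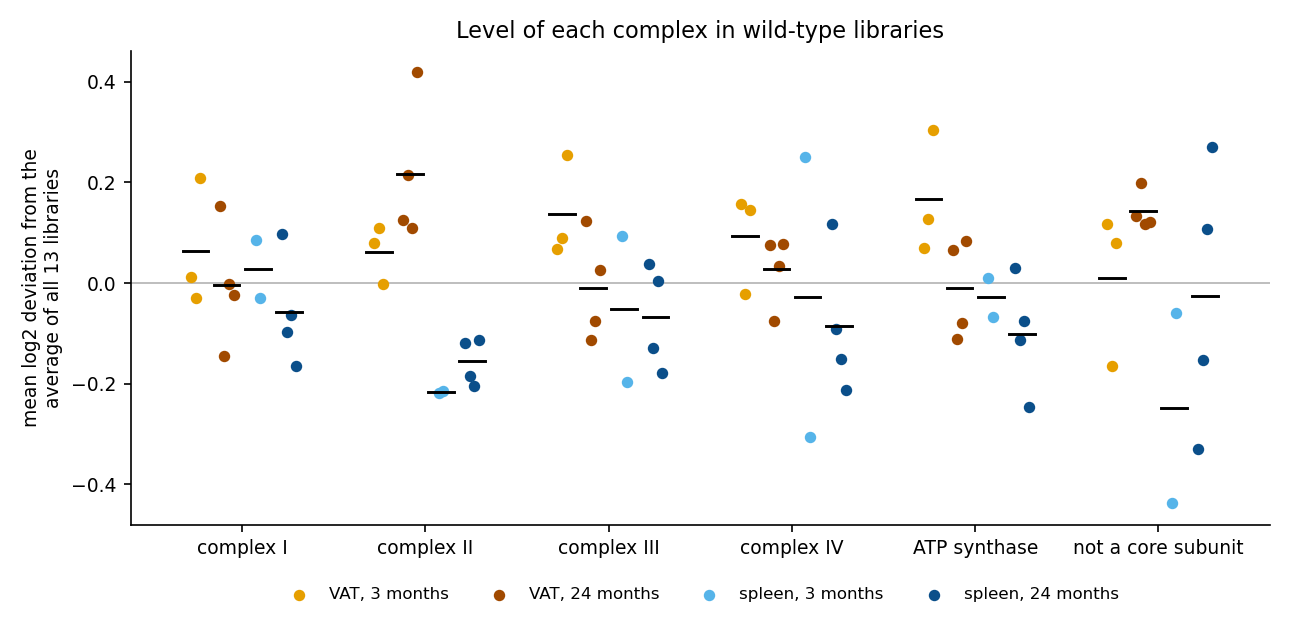
Mean log2 level of the members of each complex in each of the 13 wild-type libraries, on the deposited scale, as a deviation from the average of all 13 (vertical axis), by complex (horizontal axis); points are libraries, coloured by group, and bars are group means. For complex II the VAT libraries lie between -0.001 and 0.42 and the spleen libraries between -0.22 and -0.11, an order that does not hold for shares of reads.

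The first question was whether the chain differed between old and young macrophages of fat. At 24 against 3 months in VAT, 2 members were lower and 0 higher of the 89, where limma with Benjamini-Hochberg adjusted p under 0.05 called 5.4% of all 13702 genes tested, 3.17% as lower and 2.23% as higher. They were Atp5e, the epsilon subunit in the central stalk of ATP synthase, and Cox6c, a small membrane subunit of complex IV. Atp5e stood at 5878, 6142 and 7449 normalised counts at 3 months and at 5415, 3591, 3988 and 4047 at 24 months. The groups did not overlap, and replicate 1 stood above the other 24-month libraries. Atp5e fell by 0.62 on the log2 scale (SE 0.146, n = 3 and 4, adjusted p = 0.0222). Cox6c stood at 5286, 5166 and 6511 at 3 months and at 4969, 3236, 3989 and 3736 at 24 months, again without overlap and with replicate 1 highest of the old libraries. It fell by 0.51 (SE 0.143, adjusted p = 0.0484). Neither was called without 3-month replicate 2 or 3 or without 24-month replicate 2 or 3, Cox6c was lost in 10 of 15 alternatives in all, and edgeR called Atp5e (adjusted p = 0.0339) but not Cox6c (0.0658). Reads of Cox6c may be shared with 2 near-identical copies and with Vps13b, which overlaps 7.01% of its exon bases on the opposite strand.

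The next smallest p-values belonged to Ndufa6 (-0.47, adjusted p = 0.0516), an accessory subunit of complex I, and to Ndufb7 (-0.37, 0.162) and Cox5b (-0.37, 0.168), none of which passed. In all, 11 of the 89 members (12.4%) had an unadjusted p under 0.05, against 20.6% of all genes. The groups did not overlap, with 24 months lower, in 10 members against 10.6% of all genes, and with 24 months higher in 1 member against 12.2%. By complex, the median log2 difference was -0.20 for ATP synthase, where 13 of 15 members lay below 0, -0.20 for complex IV, -0.17 for complex III and -0.06 for complex I. Complex II lay at 0.18, with all 4 subunits above 0, and none of the 4 passed: Sdha 0.25 (adjusted p = 0.439), Sdhb 0.15 (0.529), Sdhc 0.21 (0.559) and Sdhd 0.0021 (0.998). The median over the 89 members was -0.08 and that over all genes 0.04. Without replicate 3 of 3-month VAT, the young library in which most members were highest, the median of the members was -0.02 and that of ATP synthase -0.07. Markers of other cells moved between the same groups. Fibroblast markers, 5 of 5, summed to 28766 to 29509 at 3 months and to 54074 to 79116 at 24 months. The fibroblast rise was mostly Dcn (mean 17672 to 44342 as normalised among the VAT libraries). Col1a2 and Pdgfra rose too, while Col1a1 (1925 to 2643 against 2342 to 4423) and Col3a1 (3832 to 5797 against 4289 to 8603) overlapped between ages. B cell markers, 5 of 5, went from 569 to 780 up to 1720 to 8221, and summed plasma cell markers, 5 of 6, from 11985 to 21219 up to 35568 to 65885. The plasma cell rise was mostly Jchain (mean 4968 to 31758 as normalised among the VAT libraries). Xbp1 and Mzb1 rose too, while mean Sdc1 fell (2435 to 1644) and Prdm1 overlapped between ages (375 to 589 against 296 to 963). The sum of eosinophil markers, 6 of 6, ran the other way, from 15972 to 23249 at 3 months to 2098 to 5643 at 24 months. It was mostly Ear2, with Epx at 1 in every library, and the list did not move as 1. As normalised among the VAT libraries, Ear1 fell and Prg2 rose (24.8 to 91.0 against 159 to 392). Siglecf overlapped between ages (279 to 754 against 46.6 to 757). Their part in the age differences in VAT was not tested.

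In spleen, 1 member was higher and 1 lower at 24 months, where 2.8% of all genes were called higher and 3.4% lower (6.2% in all). Uqcrc1, a core protein of complex III, stood at 6254 and 4906 at 3 months and at 8247, 6999, 7468 and 8118 at 24 months. All old libraries lay above both young ones, and the difference was 0.47 (SE 0.133, n = 2 and 4, adjusted p = 0.0476). Ndufb9, an accessory subunit in the membrane arm of complex I, stood at 5395 and 5558 at 3 months and at 4576, 3831, 3806 and 3468 at 24 months, without overlap. It fell by 0.49 (SE 0.135, adjusted p = 0.0452), and 19.5% of its exon bases are shared with Gm49356 on the same strand. With edgeR neither passed (Uqcrc1 0.0623, Ndufb9 0.0709), and with each library left out in turn Uqcrc1 kept its call only without 24-month replicate 2 and Ndufb9 only without 24-month replicate 1. Atp5a1, the catalytic-ring alpha subunit of ATP synthase (0.52, adjusted p = 0.0595), Cox7a2 (-0.44, 0.0668) and Sdha, the flavoprotein of complex II (0.52, 0.126), came next. Cox4i2 had the highest difference (3.17, SE 1.20, adjusted p = 0.133): it stood at 69.2 and 1 in the 3-month libraries and at 130, 157, 86.4 and 69.6 at 24 months.

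Of the 89 members, 17 had an unadjusted p under 0.05 in spleen (19.1%, against 22.0% of all genes). Complex medians were -0.26 for complex IV, -0.10 for complex III, -0.10 for complex I, -0.08 for ATP synthase and 0.0021 for complex II, and the median over all members was -0.09 against 0 over all genes. When values were scaled to the total reads of each library instead, the medians became 0.11 and 0.19. Markers of other cells moved with age here too. Neutrophil markers, 7 of 8, summed to 537040 to 715080 in 3-month and 141400 to 311680 in 24-month spleen, erythroid markers, 5 of 5, to 35547 to 37784 and 9031 to 20770, and NK cell markers, 5 of 5, to 9713 to 10029 and 4447 to 6677. Plasma cell markers, 5 of 6, summed to 62059 to 65152 and 103360 to 190660. Their part in the age differences in spleen was not tested.

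Age differences in VAT and spleen rest on separate libraries of the same table. Across the 89 members they had a Pearson r of 0.53 and a Spearman rho of 0.45, given as a description since genes are not independent replicates. Both lay below 0 for 42 members and above 0 for 18, and they lay on opposite sides for the other 29.

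**Figure D2:**
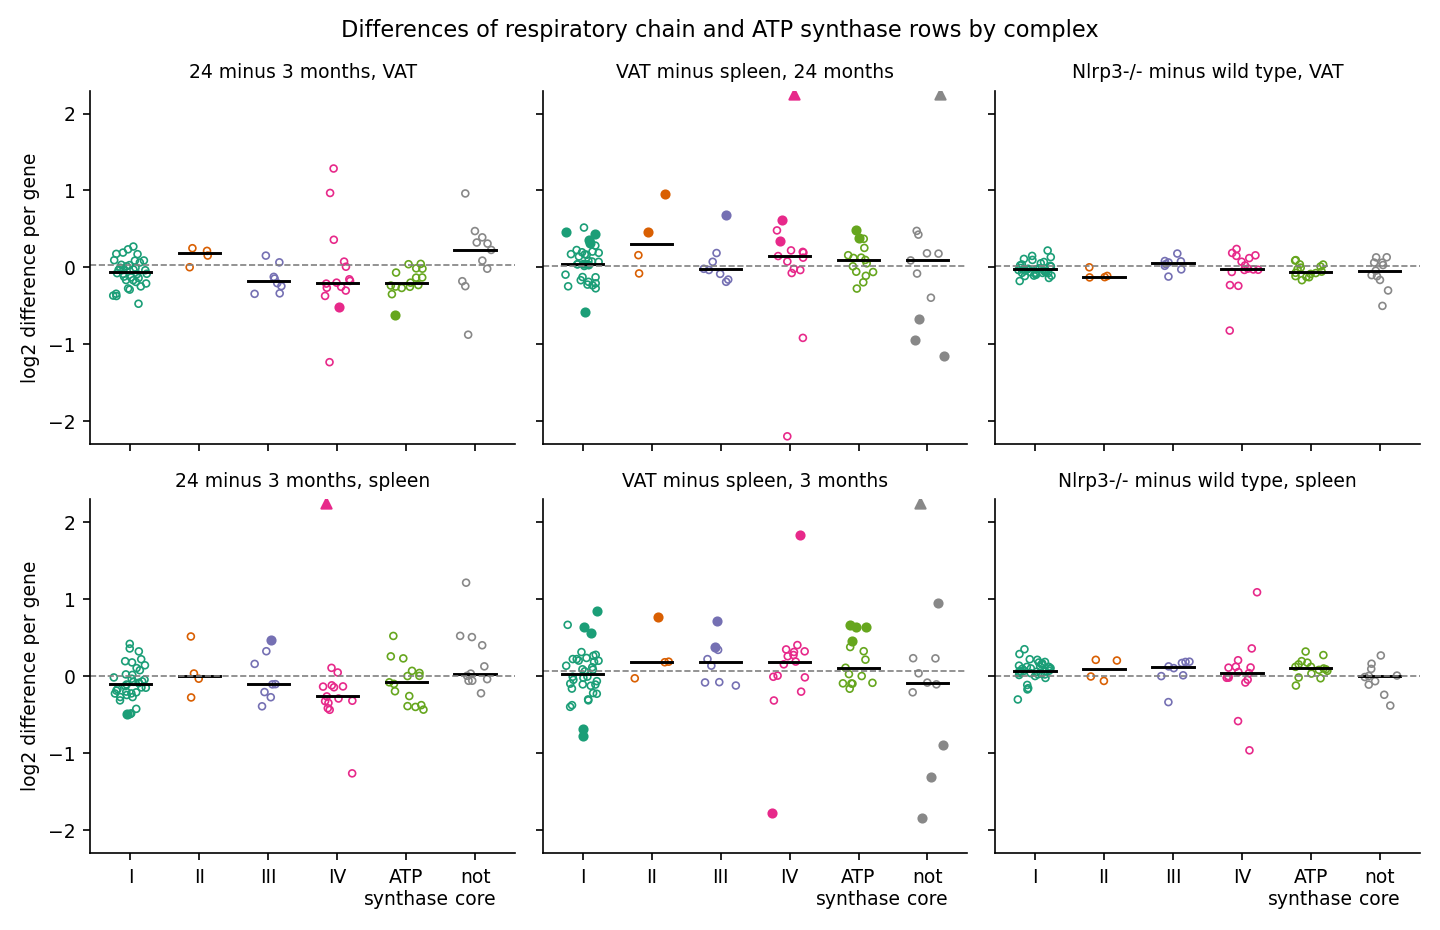
Log2 difference of each member (vertical axis) by complex (horizontal axis) in 6 comparisons, 1 per panel; filled points passed limma at an adjusted p under 0.05, black bars are medians of each complex, dashed lines medians of all genes tested, and triangles values beyond the axis, called in the tissue panels and not called for Cox4i2 in the spleen age panel. Called members number 2 in each age panel, 0 in each genotype panel, and 17 at 24 months and 19 at 3 months in the tissue panels.

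Within the members, the age difference went with transcript length in both tissues. In VAT the 43 members under 800 bases had a median of -0.18, with 34 below 0, the 20 from 800 to 1200 bases a median of -0.15, and the 26 of 1200 bases or more a median of 0.08, with 7 below 0. In spleen the medians were -0.21, -0.07 and 0.14. Spearman's rho between length and age difference was 0.55 in VAT and 0.59 in spleen over the 89 members. It stayed between 0.46 and 0.58, and between 0.44 and 0.62, when each library was left out in turn. Over the 13026 tested genes with a length it was -0.12 and -0.08, and over the 77 mitochondrial ribosomal proteins 0.18 and 0.21. Over 82 cytosolic ribosomal proteins it was 0.32 and 0.41. Low values of short transcripts were not particular to the members. All 500 tested genes under 800 bases had medians of -0.133 in VAT (318 below 0) and -0.161 in spleen (326 below 0). The 11596 of 1200 bases or more had medians of 0.0484 and 0.0132. For the 45 cytosolic ribosomal proteins under 800 bases the medians were -0.348 and -0.189. Differences by genotype in VAT went with length in the opposite direction, where rho over the members was -0.44 (-0.51 over the 78 subunits), against 0.16 over all genes with a length, while it was -0.11 for genotype in spleen, -0.0036 for tissue at 24 months and 0.032 at 3 months. All points of a panel share the same libraries, and subunit size, complex and length go together in part in this family. The short members are mostly the small subunits of complexes I, III and IV and of ATP synthase. The long ones include large catalytic subunits such as Sdha and Atp5a1 and assembly factors such as Ndufaf1. They also include subunits with short coding sequences, such as Sdhc (3171 bases, 507 of them coding) and Ndufc1 (1249 bases, 228 coding). The part of RNA quality or fragment selection in this relation was not tested.

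**Figure D3:**
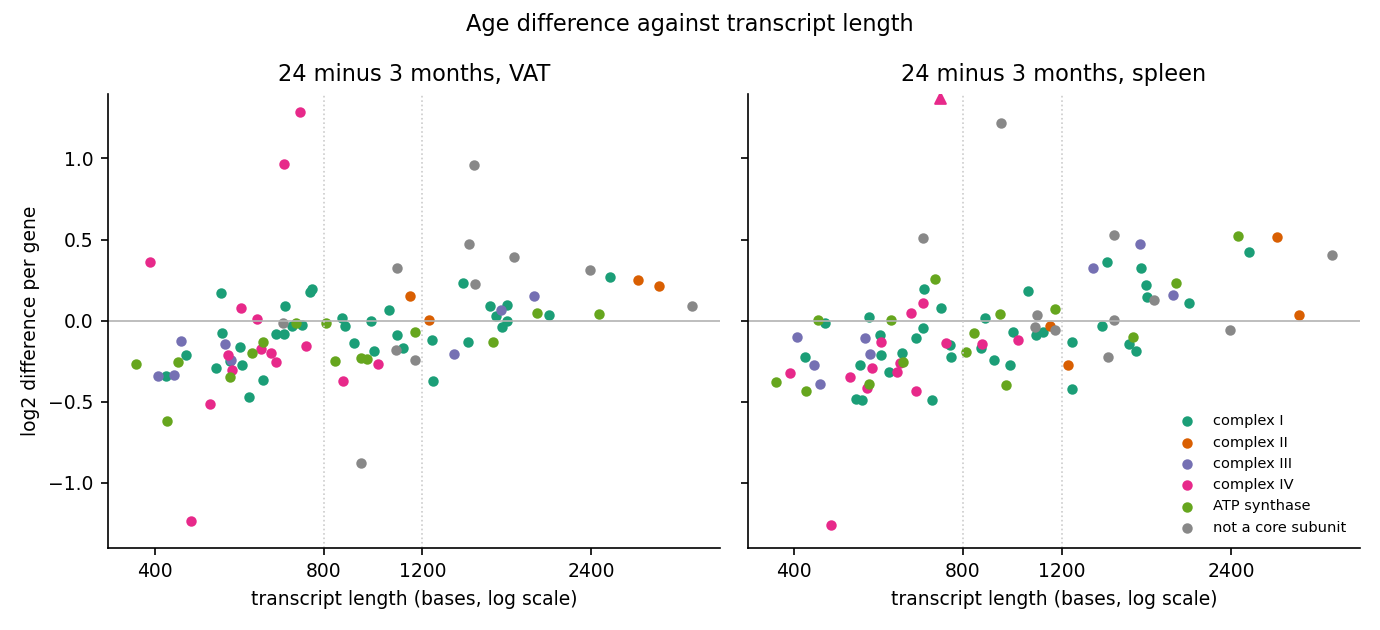
Log2 difference of each member between 24 and 3 months (vertical axis) against transcript length in bases (horizontal axis, log scale), in VAT and in spleen; points are members coloured by complex, dotted lines stand at 800 and 1200 bases and the triangle is Cox4i2 in spleen (3.17). Members under 800 bases lie mostly below 0 and those from 1200 bases mostly above.

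More members were called between tissues than between ages, and on the deposited scale a smaller share of them than of all genes. At 24 months 13 members were higher and 4 lower in VAT than in spleen of the 89, where 26.6% of all genes were called higher and 22.5% lower (49.1% in all). In the band of like mean values, 18.3% of 71 members were called against 51.6% of 7803 genes, and the median size of the difference was 0.17 for the members and 0.53 for the genes. At 3 months 13 members were higher and 6 lower, against 23.2% and 18.7% of all genes (41.9% in all). Of these, 11 were called in the same direction at both ages, which is 64.7% of the 17 called at 24 months and 57.9% of the 19 at 3 months. They are Ndufa4l2, Cox7a1, Sdhc, Uqcrb, Ndufa9, Ndufc2 and Atp5b, higher in VAT, and Ndufaf1, Ndufaf3, Ndufa3 and Atp5sl, lower. The split of directions depends on scaling: with TMM it was 8 higher and 9 lower at 24 months (19.1% of members called against 50.1% of all genes) and 11 and 7 at 3 months (20.2% against 42.2%). Scaled to total reads, the median of all genes moved by -0.48 at 24 months and -0.27 at 3 months, and the split became 3 higher and 58 lower, and 4 and 17. On that scale 68.5% of members were called at 24 months, above the 59.1% of all genes (17.6% higher and 41.5% lower), and 23.6% against 44.4% at 3 months. Relative to the median of all genes, that of the members was 0.06 higher at 24 months on each of the 3 scales.

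As a share of reads, the 89 members took 1.07% ± 0.080 (SD, n = 3) of reads in 3-month VAT and 0.987% ± 0.056 (n = 4) in 24-month VAT. In spleen they took 1.20% ± 0.0073 (n = 2) and 1.31% ± 0.040 (n = 4). The share was thus higher in spleen while the median normalised count was slightly higher in VAT (0.08 at 24 months and 0.09 at 3 months, against 0.02 and 0.07 for all genes), which is the difference in scaling given above. Only members whose call held on all 3 scales are described as differing between tissues in what follows, unless the exception is stated.

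In complex II, Sdhc differed, and on the deposited scale its partners differed less. Sdhc (chr1:171127165-171150603, minus strand, GRCm38) stood at 2596, 3607, 3819 and 4251 in 24-month VAT and at 2030, 1871, 1575 and 1813 in 24-month spleen. All VAT libraries lay above all spleen libraries, and the difference was 0.95 (SE 0.173, n = 4 and 4, adjusted p = 0.000296), called under every alternative. At 3 months Sdhc stood at 3289, 3135 and 2685 in VAT and at 1398 and 2242 in spleen (0.77, SE 0.223, adjusted p = 0.0115), a call lost when scaled to total reads and without 3-month spleen replicate 1. Sdhd, the other membrane anchor, was higher in 24-month VAT by 0.46 (SE 0.0999, adjusted p = 0.00133), but came to -0.0260 when scaled to total reads. Sdha (-0.08, adjusted p = 0.707) and Sdhb (0.16, 0.278), the subunits that oxidise succinate, did not pass on the deposited scale. Scaling to total reads moved the median of all genes by -0.48 at 24 months, so the sizes compared here are those of the deposited scale.

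Complex I held calls in both directions. Ndufa9, an accessory subunit near the ubiquinone site, stood at 4821, 4542 and 5630 in 3-month VAT and at 3027 and 2532 in 3-month spleen, without overlap. The difference was 0.85 (SE 0.164, n = 3 and 2, adjusted p = 0.000711) and was called under every alternative. At 24 months it was 0.35 (adjusted p = 0.0308), and -0.13 when scaled to total reads. Ndufa3 ran the other way, at 4931, 4336 and 5392 in 3-month VAT and 8978 and 7778 in 3-month spleen, a fall by 0.78 in VAT (SE 0.192, adjusted p = 0.0041). At 24 months Ndufa3 stood at 5573, 3477, 3814 and 3408 in VAT and at 6404, 5936, 6344 and 5301 in spleen. VAT replicate 1 there lay within the spleen range, and the difference was -0.59 (SE 0.148, adjusted p = 0.00409). Ndufb9, the subunit that was lower in old spleen, stood at 3227, 3223 and 3760 in 3-month VAT and 5395 and 5558 in 3-month spleen (-0.69, SE 0.143, adjusted p = 0.00116). Called on the deposited scale, and lost on at least 1 other scale, were the core subunit Ndufs7 (0.32) and the accessory Ndufc2 (0.46) at 24 months. At 3 months the same held for the core subunit Ndufv1 (0.64), which binds NADH, and Ndufc2 (0.57).

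Assembly factors of complex I were among the members lower in VAT. Ndufaf1 (chr2:119655446-119662827, minus strand) stood at 300, 269, 488 and 368 in 24-month VAT and at 812, 617, 855 and 823 in 24-month spleen, and at 323, 215 and 225 against 1008 and 800 at 3 months. The tissues did not overlap at either age. The difference was -1.15 at 24 months (SE 0.238, adjusted p = 0.000912) and -1.84 at 3 months (SE 0.307, adjusted p = 0.000195), called under every alternative. Ndufaf3 stood at 638, 489, 641 and 597 in 24-month VAT and at 986, 933, 928 and 911 in spleen (-0.68, SE 0.165, adjusted p = 0.00321), and was lower at 3 months as well (-0.90, adjusted p = 0.00331). Atp5sl, which resembles Atp5s and is known as a complex I assembly factor, stood at 317, 392, 258 and 309 in 24-month VAT and 565, 404, 813 and 722 in spleen (-0.94, SE 0.28, adjusted p = 0.0116), and at 3 months the difference was -1.31 (adjusted p = 0.00888), which was -0.83 and not called without spleen replicate 2. Ndufaf2 was higher in 3-month VAT (0.95, adjusted p = 0.00955), though not when scaled to total reads or without spleen replicate 1. B230220B15Rik overlaps 65.6% of its exon bases on the opposite strand, so that its reads may not be its own.

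Of complex III, Uqcrb (chr13:66900617-66905378, minus strand), a subunit at the ubiquinone side, stood at 5375, 4895 and 6672 in 3-month VAT and 3704 and 3139 in spleen (0.72, SE 0.152, adjusted p = 0.00142), called under every alternative. At 24 months the difference was 0.68 (SE 0.118, adjusted p = 0.0002), with the 4 VAT libraries at 4846 to 5657 and the 4 spleen libraries at 2973 to 3326. When scaled to total reads the 24-month difference was 0.19 and did not pass. Uqcrb has near-identical copies, so the value may mix genes. Uqcrc1 was higher in 3-month VAT by 0.37 (adjusted p = 0.0428) on the deposited scale. Of ATP synthase, Atp5b, the catalytic beta subunit, was higher in VAT at both ages (0.49, adjusted p = 0.0129, at 24 months and 0.67, 0.0102, at 3 months), and at 24 months its groups overlapped and the value was -0.000845 when scaled to total reads. Atp5a1 (0.64), Atp5g3 (0.65) and Atp5g1 (0.45), the latter pair coding for the same c-ring protein, were called at 3 months and Atp5j2 (0.38) at 24 months, on the deposited scale.

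**Figure D4:**
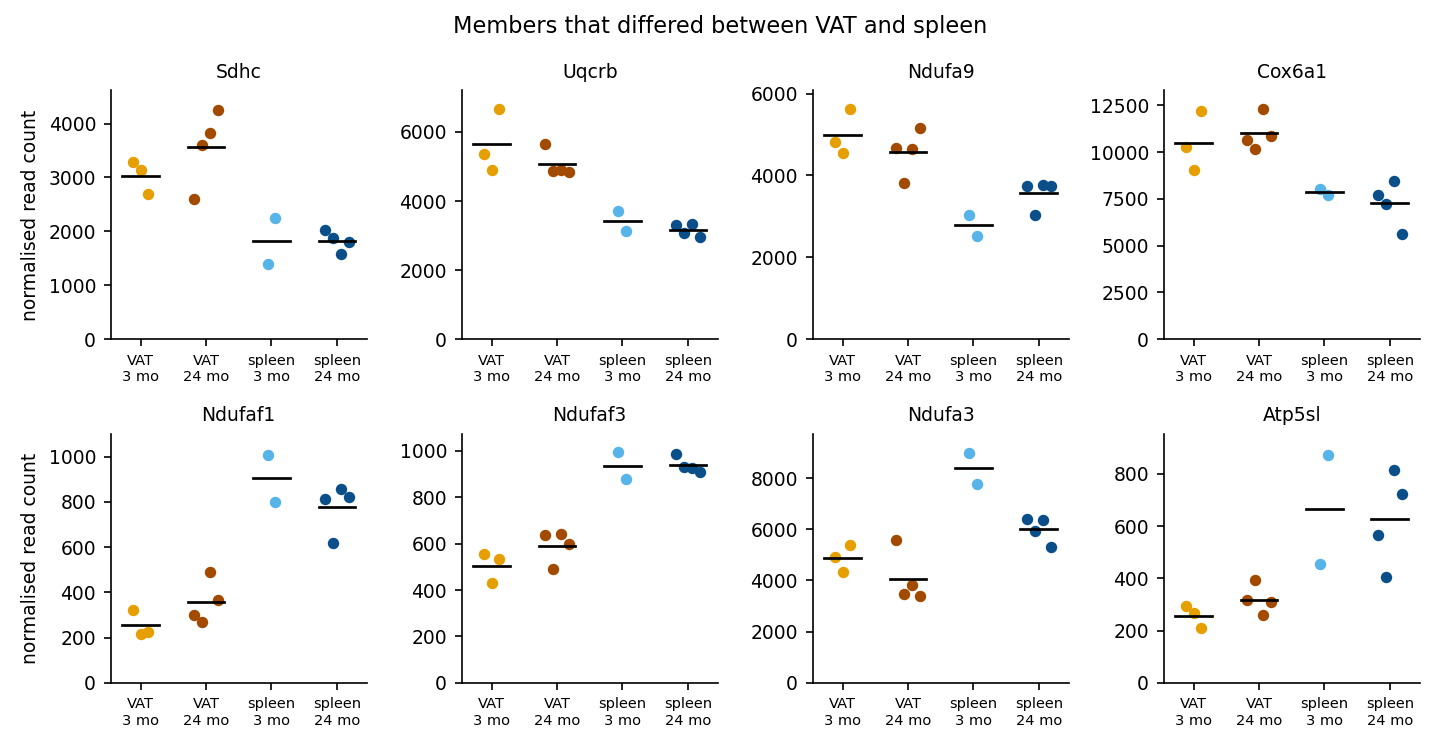
Normalised counts (vertical axis) of 8 members in each wild-type library by group (horizontal axis); points are libraries and bars group means. Sdhc, Uqcrb, Ndufa9 and Cox6a1 in the upper row stand higher in VAT (Sdhc 2596 to 4251 against 1575 to 2030 at 24 months), and Ndufaf1, Ndufaf3, Ndufa3 and Atp5sl in the lower row stand higher in spleen.

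Complex IV is the assembly with tissue-specific forms of its subunits, and these were among the members that differed most. Cox7a1, the heart and muscle form that is also known from brown fat, stood at 147, 93.9, 162 and 135 in 24-month VAT and at 36.6, 22.5, 12.5 and 22.9 in 24-month spleen. The groups did not overlap, and the difference was 2.52 (SE 0.463, n = 4 and 4, adjusted p = 0.000323), called under every alternative. At 3 months Cox7a1 stood at 131, 80.9 and 101 against 31.5 and 24.7 (1.84, SE 0.598, adjusted p = 0.0219), a call lost without VAT replicate 1 or either spleen library. Its ubiquitous counterpart Cox7a2 was not called between tissues, and Cox7a1 made up 2.22% ± 0.546 (SD, n = 3) of the reads of the pair in 3-month VAT, 3.33% ± 0.537 (n = 4) in 24-month VAT, 0.607% ± 0.049 (n = 2) in 3-month spleen and 0.689% ± 0.260 (n = 4) in 24-month spleen. None of the 5 listed markers of brown adipocytes or muscle (Ucp1, Cidea, Ckm, Myh1, Acta1) has a row in the table. Summed fibroblast and adipocyte markers, the latter mostly Fabp4, were also higher in VAT, in the ranges given above. Their part in the Cox7a1 difference was not tested.

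For Cox6a the heart form stood on the spleen side. Cox6a1, the ubiquitous form, was higher in 24-month VAT by 0.61 (SE 0.132, adjusted p = 0.00124, on the deposited scale), with 10189 to 12322 in VAT and 5644 to 8428 in spleen. Cox6a2, the heart and muscle form, stood at 47.3, 22.2 and 64.2 in 3-month VAT and at 139 and 145 in 3-month spleen (-1.77, SE 0.547, adjusted p = 0.0165), a call lost without VAT replicate 2 or either spleen library. At 24 months the tissues did not overlap either, but the difference of -0.92 did not pass (SE 0.424, adjusted p = 0.0863). Cox6a2 made up 0.409% ± 0.146 (SD, n = 3) of the reads of the pair in 3-month VAT and 0.768% ± 0.28 (n = 4) in 24-month VAT, against 1.77% ± 0.090 (n = 2) and 2.12% ± 0.401 (n = 4) in spleen. Cox6a2 shares 10.3% of its exon bases with Itgad on the opposite strand. Itgad, an integrin of splenic red pulp macrophages, stood at 1 in all 3-month VAT libraries, at 8.80 ± 9.02 (n = 4) in 24-month VAT, at 2892 ± 873 (n = 2) in 3-month spleen and at 3739 ± 1141 (n = 4) in 24-month spleen. The share of Itgad reads in the Cox6a2 values was not tested.

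Ndufa4l2, a paralogue of Ndufa4 that is known to be induced in low oxygen, was the member with the highest tissue difference. The gene lies at chr10:127514967-127517154 on the plus strand. It stood at 84.9, 77.0 and 220 in 3-month VAT and at 1, which is 0 reads, in both 3-month spleen libraries. VAT was at least 44.7-fold higher, with the mean of 127 set against 2.85, the mean of the spleen libraries' 3-read floors. Replicate 3 weighs on this bound: without it the VAT mean was 81.0 and the bound 28.4-fold. At 24 months Ndufa4l2 stood at 54.6, 76.5, 66.3 and 50.3 in VAT and at 1, 4.69, 1 and 19.5 in spleen (3.74, SE 0.751, adjusted p = 0.000707). It came to 1.09% ± 0.327 (SD, n = 4) of the reads of Ndufa4 and Ndufa4l2 together in 24-month VAT and 0.126% ± 0.196 (n = 4) in 24-month spleen. Cox4i2 lay on the spleen side at 24 months without passing (-2.20, adjusted p = 0.0764), at 15.9 to 30.6 in VAT against 69.6 to 157 in spleen.

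For other paralogues the shares lay closer together across tissues. The 3 genes Atp5g1, Atp5g2 and Atp5g3 code for 1 mature c-ring protein and took 24.6%, 35.3% and 40.2% of their joint reads in 3-month VAT and 23.6%, 32.6% and 43.7% in 24-month VAT. In spleen the shares were 25.4%, 38.3% and 36.4% at 3 months and 23.7%, 35.8% and 40.5% at 24 months. Cox6b2, a form known from testis, took 1.90% ± 0.420 (SD, n = 3) of the reads of Cox6b1 and Cox6b2 in 3-month VAT and 0.942% ± 0.306 (n = 4) at 24 months, and 2.03% ± 0.786 (n = 2) and 1.15% ± 0.727 (n = 4) in spleen. Its age difference did not pass in VAT (-1.23, adjusted p = 0.237) or in spleen (-1.26, 0.273).

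**Figure D5:**
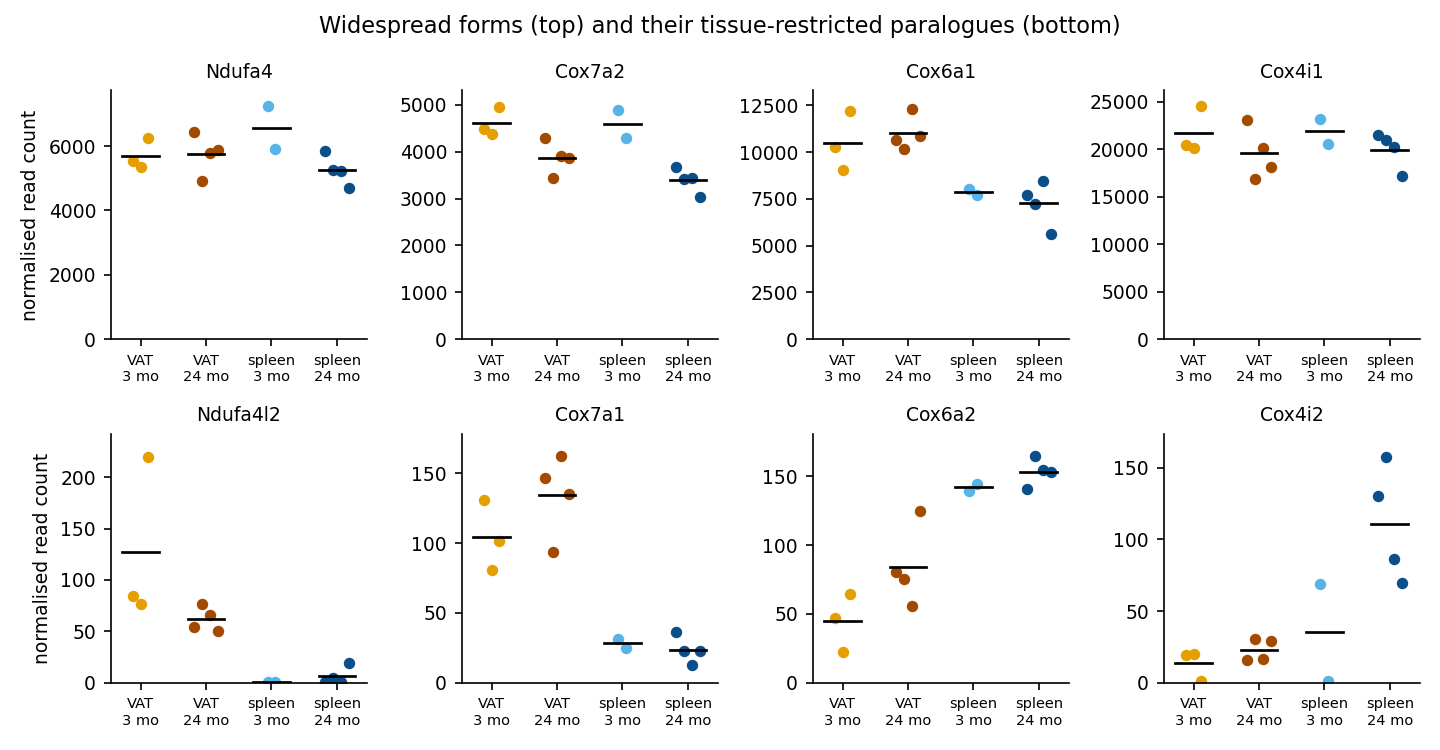
Normalised counts (vertical axis, own range in each panel) of common subunit forms (Ndufa4, Cox7a2, Cox6a1 and Cox4i1, upper row) and their tissue or hypoxia-linked paralogues (Ndufa4l2, Cox7a1, Cox6a2 and Cox4i2, lower row) in each wild-type library by group (horizontal axis). Ndufa4l2 and Cox7a1 stand higher in VAT, while Cox6a2 stands at 22.2 to 64.2 in 3-month VAT and at 139 and 145 in 3-month spleen.

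Whether age acted on the members differently in the 2 tissues was tested as the interaction of tissue and age. None of the 89 members passed, where 2.74% of all genes did, and edgeR also called 0. An unadjusted p under 0.05 was reached by 5 members: Ndufb9 (0.46, SE 0.180, adjusted p = 0.209), Ndufa9 (-0.49, SE 0.208, 0.244), Atp5a1 (-0.48, SE 0.209, 0.256), Uqcrc1 (-0.41, SE 0.177, 0.258) and Uqcrfs1, the Rieske iron-sulfur protein of complex III (-0.53, SE 0.233, 0.264). So the age calls of Atp5e and Cox6c in VAT and of Uqcrc1 and Ndufb9 in spleen are not shown to differ between tissues. The median over the members was -0.04 and that over all genes 0.01.

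The last comparison asked whether the chain in old macrophages depends on Nlrp3. In VAT, 0 of the 89 members were called between Nlrp3-/- and wild type, and edgeR also called 0 of them. Over all genes limma called 1 of 13090 (0.00764%), so 0 calls cannot set the members apart from other genes. Members had a median difference of -0.03 and a median size of 0.07, with a median SE of 0.13. Only Ndufaf7, a methyltransferase needed for complex I assembly, had an unadjusted p under 0.05. It stood at 1198, 1448, 1027 and 750 in wild-type VAT and at 915, 815, 676 and 662 in Nlrp3-/- VAT. The groups overlapped through wild-type replicate 4, and the difference was -0.50 (SE 0.194, n = 4 and 4, adjusted p = 0.775). Cox6a1 stood at 10007, 9435, 11468 and 10257 in wild type and at 9714, 8973, 7823 and 8383 in Nlrp3-/- VAT (-0.24, adjusted p = 0.832). The members lower in old VAT showed no called difference: Atp5e stood at 5081, 3325, 3712 and 3820 in wild type and at 3620, 4514, 4338 and 4394 in Nlrp3-/-, and Cox6c at 4663, 2997, 3713 and 3526 against 4039, 4230, 3957 and 4558. Cox7a1 stood at 87.0 to 151 in wild type and 76.4 to 128 in Nlrp3-/- VAT. Leaving out Nlrp3-/- VAT replicate 4, in which Nlrp3 stood at 200, also gave 0 calls.

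In spleen 0 of 88 members were called, against 1 of 13053 genes in all (0.00766%), and edgeR called 0 of the members. An unadjusted p under 0.05 was reached by 2 members. Atp5h, a peripheral stalk subunit of ATP synthase, stood at 2853, 2693, 2672 and 2392 in wild type and at 3259, 3227 and 3442 in Nlrp3-/- spleen. These groups did not overlap (0.32, SE 0.135, n = 4 and 3, adjusted p = 0.782). Uqcrfs1 stood at 5936, 6835, 7742 and 6194 in wild type and at 5292, 5727 and 4804 without Nlrp3, also without overlap (-0.34, SE 0.157, adjusted p = 0.804). Members lay above 0 in 66 of 88 cases, with a median of 0.07 against 0.01 for all genes and a median SE of 0.14. Neutrophil markers, 7 of 8 listed, summed to 334150 to 1011100 in Nlrp3-/- spleen against 153750 to 339890 in wild-type spleen, and their part in these values was not tested.

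Gene lists of the surrounding machinery were read with the same calls. In VAT age called 5.4% of all genes, 2.23% higher and 3.17% lower. It called 0 of 43 assembly factors outside the name rule, 0 of 24 electron carriers and coupling proteins, and 0 of 77 mitochondrial ribosomal proteins. The citric acid cycle list has 19 genes of that cycle and of pyruvate dehydrogenase and carboxylase. Of these 1 was higher at 24 months (Idh2, 0.62, adjusted p = 0.0486 with limma and 0.0604 with edgeR). Of 18 regulators of mitochondrial biogenesis 1 was higher: Ppargc1a, the coactivator PGC-1alpha, at 3.76 ± 2.71 (SD, n = 3) at 3 months and 28.2 ± 9.0 (n = 4) at 24 months (adjusted p = 0.0395 with limma and 0.14 with edgeR). Of 20 glycolysis genes Hk2 was lower (-1.13, adjusted p = 0.0099). Cytosolic ribosomal proteins had 10 of 83 lower and a median of -0.32, against -0.08 for the members. In spleen age called 6.2% of all genes, 2.8% higher and 3.4% lower. Of the 19 genes of the citric acid cycle list 2 were higher, Idh2 (0.69) and Idh3a (0.85). Of 43 assembly factors 1 was lower, the copper chaperone Cox17 (-0.65). Of 20 glycolysis genes 2 were lower, Pfkfb4 (-1.08) and Pgk1 (-0.52), and of 18 regulators 1, Peo1 (-1.52), the helicase of mitochondrial DNA. Of 77 mitochondrial ribosomal proteins Mrps2 (1.15) and Mrps27 (0.94) were higher and Mrpl33 (-0.95) lower, of 83 cytosolic ones Rps4l (-2.34) was lower, and of 24 carriers 0 were called. With edgeR only Mrps27 (adjusted p = 0.0391), Mrpl33 (0.0389) and Rps4l (0.0189) of these 10 passed, and the other 7 lay between 0.0502 and 0.0824.

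Between tissues at 24 months, where 26.6% of all genes were called higher and 22.5% lower, the counts of the lists moved with the scaling as those of the members did. On the deposited scale, assembly factors outside the rule were called 3 higher and 11 lower of 43, among the lower Cox11 (-2.30) and Taco1 (-1.74), which serve complex IV, and Sdhaf1 (-1.46), which serves complex II. Carriers and coupling proteins were called 8 higher and 1 lower of 24, led by Coq10b (3.35), a ubiquinone-binding protein. Genes of the citric acid cycle list were called 4 higher, led by Idh2 (1.92), and 1 lower, Mdh2 (-0.93), of 19. Tfam, which packages mitochondrial DNA, was lower in VAT (-1.11, adjusted p = 9.41e-05). With TMM, which called 24.2% of all genes higher and 25.9% lower, the counts were 2 higher and 13 lower for assembly factors. They were 6 and 1 for carriers and 3 and 3 for the citric acid cycle list. Scaled to total reads, 17.6% of all genes were called higher and 41.5% lower. The counts of the lists were then 0 and 27, 2 and 10, and 1 and 7. The 7 genes named here kept their call and direction on both other scales, at 24 months. At 3 months Taco1 (-2.82), Sdhaf1 (-1.50), Tfam (-1.25), Coq10b (3.80), Idh2 (1.99) and Mdh2 (-0.45) were called in the same directions. In the genotype comparisons 0 genes were called in each of these lists in VAT and in spleen, against 0.00764% and 0.00766% of all genes, which is 1 gene in each tissue.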

How the data were processed

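RNA of the 20 sorted-cell libraries was measured by poly-A RNA sequencing with strand-specific libraries, per the labels' protocols. The authors deposited normalised gene read counts, a signal per gene and library, in 3 tables scaled separately: wild type, VAT and spleen. CASAVA 1.8.2, TopHat, Partek and DESeq2 with build mm10 are named in the submitters' processing notes, without roles. The counting strand and the filter on genes are not given in the sources used here. All value columns were used, so 0 were left out. In each library the deposited signal moves in whole steps, from which at least 99.777% of values gave whole reads within 0.05 read. Total reads ran from 27.3 to 36.8 M per wild-type library; the VAT table gave totals of 27.7 to 37.5 M, and 24.1 to 32.8 M came from the spleen table. A value of 3 reads, the most that a count of 0 allows, was worth 2.33 to 3.85 normalised counts, which covers counting error only, as PCR copies cannot be told from molecules.

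Tests ran on log2(value + 1), a pseudocount of 1, so folds of low genes are understated. Genes with a table mean of at least 10 were tested (13702, 13090 and 13053), which kept all 89 members in the wild-type and VAT tables and 88 in the spleen table, where Ndufa4l2 has no row. One limma model per table (version 3.58.1, R 4.3.3) had 1 term for each group and a mean-variance trend. A gene was called where its two-sided p, adjusted by Benjamini-Hochberg across every tested gene, was under 0.05. Differences are 24 minus 3 months, VAT minus spleen, and Nlrp3-/- minus wild type. The interaction is the tissue difference at 24 months minus that at 3 months. Age, tissue and their interaction come from the wild-type table, genotype from the VAT and spleen tables. The fit was checked on simulated data.

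Members, gene lists and tests were chosen with earlier results of these data known. Named genes are up to 12 called members per direction and comparison by size, the 5 of smallest p where fewer were called, the highest and lowest member of each complex per kb, and paralogue pairs, except 1 member whose values are not reported here; Vps13b, Gm49356, Itgad and B230220B15Rik were added after their overlap was seen. Gene spans, lengths (the principal transcript of each gene by APPRIS) and copies (at least 95% identity over at least 90% of the coding sequence) come from GENCODE vM21 on GRCm38, the build of mm10. Promoters come from RefSeq on GRCm38.p6. Alternatives were a pseudocount of 10, no filter, TMM scaling, a replicate block, only the groups compared, the other table, edgeR 4.0.16 on recovered reads, each library left out, and, added after seeing the data, scaling to total reads. Python 3.11.15, pandas 2.3.3, scipy 1.17.1 and matplotlib 3.10.9 were used.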

Additional observations from a re-analysis of the deposited data

Results flagged for a closer look

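Groups of 4 libraries were tested for 36 named members, for levels per library over all members and by complex, and for the members' share of reads. In 9 of these 132 tests (6.82%) 1 library stood apart from the other 3 beyond the 95% critical value of Dixon's test, which chance gives in about 1 of 20 groups. All 9 were tests of named members, so the rate over those alone is above 6.82%. In 24-month wild-type VAT, replicate 1 was high for Ndufa6 (5864, others 4661 to 4837), Ndufb7 (3835, others 3114 to 3146) and Uqcrb (5657, others 4846 to 4909), and replicate 4 for Atp5g3 (6074, others 4600 to 4807). In Nlrp3-/- VAT, replicate 4 was high for Atp5g3 (4638, others 4179 to 4253) and Ndufc2 (3955, others 3256 to 3334), replicate 2 for Cox5b (2523, others 2233 to 2241), and replicate 1 was low for Ndufa3 (3560, others 4302 to 4412). In 24-month wild-type spleen, replicate 2 was low for Ndufa9 (3032, others 3736 to 3772). Groups of 2 and 3 libraries could not be examined in this way.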

How the results depend on the processing

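Of 37 calls of named members, 14 held under every alternative, all between tissues, and 0 of the 4 age calls did. Counting uncalled values too, 714 values of named genes under the alternatives kept their direction and side of the threshold, 85 lost a call, 7 gained one and 6 reversed. The number of members called by age in VAT (2) became 1 with TMM, 1 with the replicate block, 1 with only the groups compared and 1 with edgeR, and lay between 0 and 3 with single libraries left out (0 without 3-month replicate 2 or 3 or 24-month replicate 2 or 3, 3 without 24-month replicate 1). In spleen (2) it became 1 with TMM, 0 with the replicate block, 0 with only the groups compared, 1 in the spleen table, 0 with edgeR and 5 with scaling to total reads, and 0 to 1 with single libraries left out. The number called between tissues at 24 months (17) became 61 with scaling to total reads and 12 with edgeR, and lay between 13 and 18 with single libraries left out (13 without spleen replicate 2 or 3), and at 3 months (19) it fell to between 12 and 18 with single libraries left out, 12 without spleen replicate 1. Scaling to total reads moved the median over the members to 0.11 for age in spleen, -0.41 for tissue at 24 months, -0.18 for tissue at 3 months and -0.25 for tissue by age. It also reversed Atp5b (-0.000845), Ndufc2 (-0.0244), Sdhd (-0.0260), Atp5j2 (-0.11), Ndufa9 (-0.13) and Cox6b1 (-0.14) between tissues at 24 months. It moves all genes alike, so such values follow from its construction, and the causes of the other changes were not tested. Same-numbered libraries did not deviate together (r -0.15 to 0.24 over 18 pairs, 2 over 0.1), so the numbers were not taken to pair samples. Genotype and tissue by age gave 0 called members under each alternative run. Groups of 2 to 4 libraries limit what can be called, and reads of short members may be split with near-identical copies.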
